A study of Mus musculus with 4 samples.

Results

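Open chromatin was examined at 10 genes of pigment synthesis and of the melanosome, the organelle in which melanin is made: Tyr, Tyrp1, Dct, Pmel, Mlana, Slc45a2, Slc24a5, Gpr143, Trpm1 and Oca2. They were chosen by name out of 21887 protein-coding genes, and each was taken as its gene body on mm10 with 10 kb on each side. The data are ATAC-seq peak lists from B16F10, a pigment-forming mouse melanoma line of C57BL/6 origin, grown in vitro; in this assay the Tn5 transposase cuts accessible DNA. Of the 4 libraries, 2 came from cells carrying a guide against Arid1a (sgArid1a) and 2 from cells carrying a scrambled guide (sgScramble), with 50000 cells per reaction. Arid1a encodes a BAF subunit; BAF complexes, of the SWI/SNF family, move nucleosomes. The labels name no promoter or vector for the guides and do not say whether the cells were a clone or a pool, or whether replicates were separate cultures, so their spread may be technical. The lists do not measure whether Arid1a was disrupted.

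The sgArid1a lists held 65353 and 71255 peaks and the sgScramble lists 82319 and 85613, with no read counts, so depth is unknown. The sgArid1a lists were thus the shorter ones. Peaks that overlapped between lists were merged into 103629 regions, of which 94 touched the 10 windows. A region was called lost if both sgScramble lists and neither sgArid1a list had a peak there, and gained in the reverse case. Every peak also carries a signal value, taken here, from its place in the broad peak format, as the authors' fold of signal over background. It was used only as a percentile within its own list, from the lowest fold at 0 to the highest at 100. The starts or ends of all 6 melanocyte markers (Mitf, Sox10, Tyr, Dct, Pmel and Mlana) had a peak in all 4 lists. Of 12 markers of keratinocytes, fibroblasts, leukocytes and endothelium, 9 had none in any list. The other 3 were the fibroblast genes Col1a1 (4 lists), Lum (3 lists, 1 of them sgArid1a) and Pdgfra (both sgScramble lists).

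Melanin is built from tyrosine by tyrosinase (Tyr) and the related enzymes Tyrp1 and Dct, on fibrils formed by Pmel. The ion and solute transporters Oca2, Slc45a2 and Slc24a5 set the conditions in which tyrosinase works, and Gpr143 is a receptor of the melanosome membrane. In melanocytes these genes are classic targets of the transcription factor MITF, which binds the E-box CACGTG and the M-box, an extended form of CATGTG. Mutations in many of them dilute or abolish coat, skin and eye colour.

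The annotated starts of Tyr, Tyrp1, Dct, Slc24a5, Oca2 and the inner start of Trpm1 lay under a region present in all 4 lists. The 250 bases before each start are shown because the start regions described below lie on them. The sequences are from RefSeq (GRCm38.p6, the build of the mm10 coordinates), written 5′ to 3′ along the gene. Capitals mark CATGTG, read as CACATG where it lies on the opposite strand, and CACGTG.
Tyr (chr7:87493513-87493762, minus strand): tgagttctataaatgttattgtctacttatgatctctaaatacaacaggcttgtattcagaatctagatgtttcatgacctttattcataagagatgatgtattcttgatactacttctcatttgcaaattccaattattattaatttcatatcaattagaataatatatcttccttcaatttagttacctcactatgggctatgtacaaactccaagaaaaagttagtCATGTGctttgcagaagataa
Tyrp1 (chr4:80833963-80834212, plus strand): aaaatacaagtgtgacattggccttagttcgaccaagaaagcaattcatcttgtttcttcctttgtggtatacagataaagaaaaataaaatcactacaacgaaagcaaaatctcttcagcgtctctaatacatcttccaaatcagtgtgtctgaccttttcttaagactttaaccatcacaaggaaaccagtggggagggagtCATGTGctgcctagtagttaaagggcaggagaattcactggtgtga
Dct (chr14:118052247-118052496, minus strand): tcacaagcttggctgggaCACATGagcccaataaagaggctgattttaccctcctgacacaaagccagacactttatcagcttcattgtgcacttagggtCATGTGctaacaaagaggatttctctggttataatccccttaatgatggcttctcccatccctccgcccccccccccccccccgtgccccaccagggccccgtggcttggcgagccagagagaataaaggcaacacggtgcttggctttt
Slc24a5 (chr2:125067877-125068126, plus strand): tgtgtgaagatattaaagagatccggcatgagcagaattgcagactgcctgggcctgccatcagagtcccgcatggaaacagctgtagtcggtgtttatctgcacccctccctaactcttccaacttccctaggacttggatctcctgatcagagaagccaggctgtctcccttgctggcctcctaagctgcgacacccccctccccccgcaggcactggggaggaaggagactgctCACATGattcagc
Oca2 (chr7:56239509-56239758, plus strand): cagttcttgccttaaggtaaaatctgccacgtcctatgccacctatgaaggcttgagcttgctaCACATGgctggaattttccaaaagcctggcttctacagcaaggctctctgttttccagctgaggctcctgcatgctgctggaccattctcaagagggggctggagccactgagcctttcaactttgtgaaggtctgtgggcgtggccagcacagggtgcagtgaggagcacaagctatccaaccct
Trpm1 (chr7:64185209-64185458, plus strand): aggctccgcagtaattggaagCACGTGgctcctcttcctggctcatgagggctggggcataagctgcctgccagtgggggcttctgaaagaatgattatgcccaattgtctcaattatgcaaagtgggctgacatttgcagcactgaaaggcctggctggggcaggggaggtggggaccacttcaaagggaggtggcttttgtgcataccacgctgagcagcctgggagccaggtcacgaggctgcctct
The stretch GTCATGTGCT is common to Tyr, Tyrp1 and Dct, where its CATGTG lies 21 to 16, 46 to 41 and 150 to 145 bases before the start. It was found, on either strand, in 51 of 32851 promoters of the same length (0.155%), and was picked out after the sequences were seen. CATGTG alone was in 6 of the 7 promoter entries for these genes and in 12.3% of all promoters. The exception, the inner promoter of Trpm1, held CACGTG, which 6.02% of all promoters hold. Of the other motifs searched on both strands, ACAAAG (the SOX core) was in 3 of the 7 and in 16.5% of all promoters, TGANTCA (AP-1) in 1 and 6.75%, TATAAA in 1 and 12.4%, and TGACGTCA (CRE) in 0 and 1.55%. TGANTCA shared a base or more with CATGTG in the Slc24a5 promoter. A match is only a match of letters.

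Each of the 10 genes had a region of all 4 lists within 1 kb of a gene end or over a start. Trpm1 had it only over its inner start, and the share of all genes with such a region was not computed. Of the 8 lost regions, 6 lay inside the 2 longest genes, Oca2 and Trpm1. These windows also held 18 and 11 of the 63 regions that both sgScramble lists had. Of the 94 regions, 49 (52.1%) were in all 4 lists, against 51.0% of all regions. Both sgScramble lists had 63 regions here and 8 of them were lost, a share of 12.7% (95% Clopper-Pearson interval 5.65% to 23.5%, counting error over regions only). Over all regions 12.9% were lost, and over the windows of all protein-coding genes 11.8%, so the share at the pigment genes was near the background. Of 51 regions present in both sgArid1a lists, 1 was gained (1.96%, interval 0.0496% to 10.4%), against 1.39% of all regions and 1.33% over all gene windows. The 8 lost regions were 4 in Oca2, 2 in Trpm1, 1 in Tyr and 1 in Dct. All lay in gene bodies. In the 10 kb flanks the count was 0 of 14 (interval 0% to 23.2%), and no share over the flanks of all genes is given beside it. Thus 4 of 10 genes had a lost region, against 30.1% of gene windows, and 1 of 10 had a gained one, against 3.96%. A window with more regions has more chances of a call, and windows were not matched for this. The 10 windows held 63 regions of both sgScramble lists, and the 17096 gene windows with any held 69784, counted at each gene. Leaving out a library loosens the rule for a call, so such counts could only stay or rise. Without sgScramble replicate 1, 16 of 78 regions were lost, and without sgScramble replicate 2, 16 of 76. Without sgArid1a replicate 2, 4 of 61 regions were gained, and without sgScramble replicate 2, 2 of 51. The same shares over all regions were not computed. With all lists cut to equal length, 1 of 41 was lost (2.44%), against 6.14% of regions over all gene windows. In the same lists 3 of 48 were gained (6.25%), against 4.36%.

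**Figure D1:**
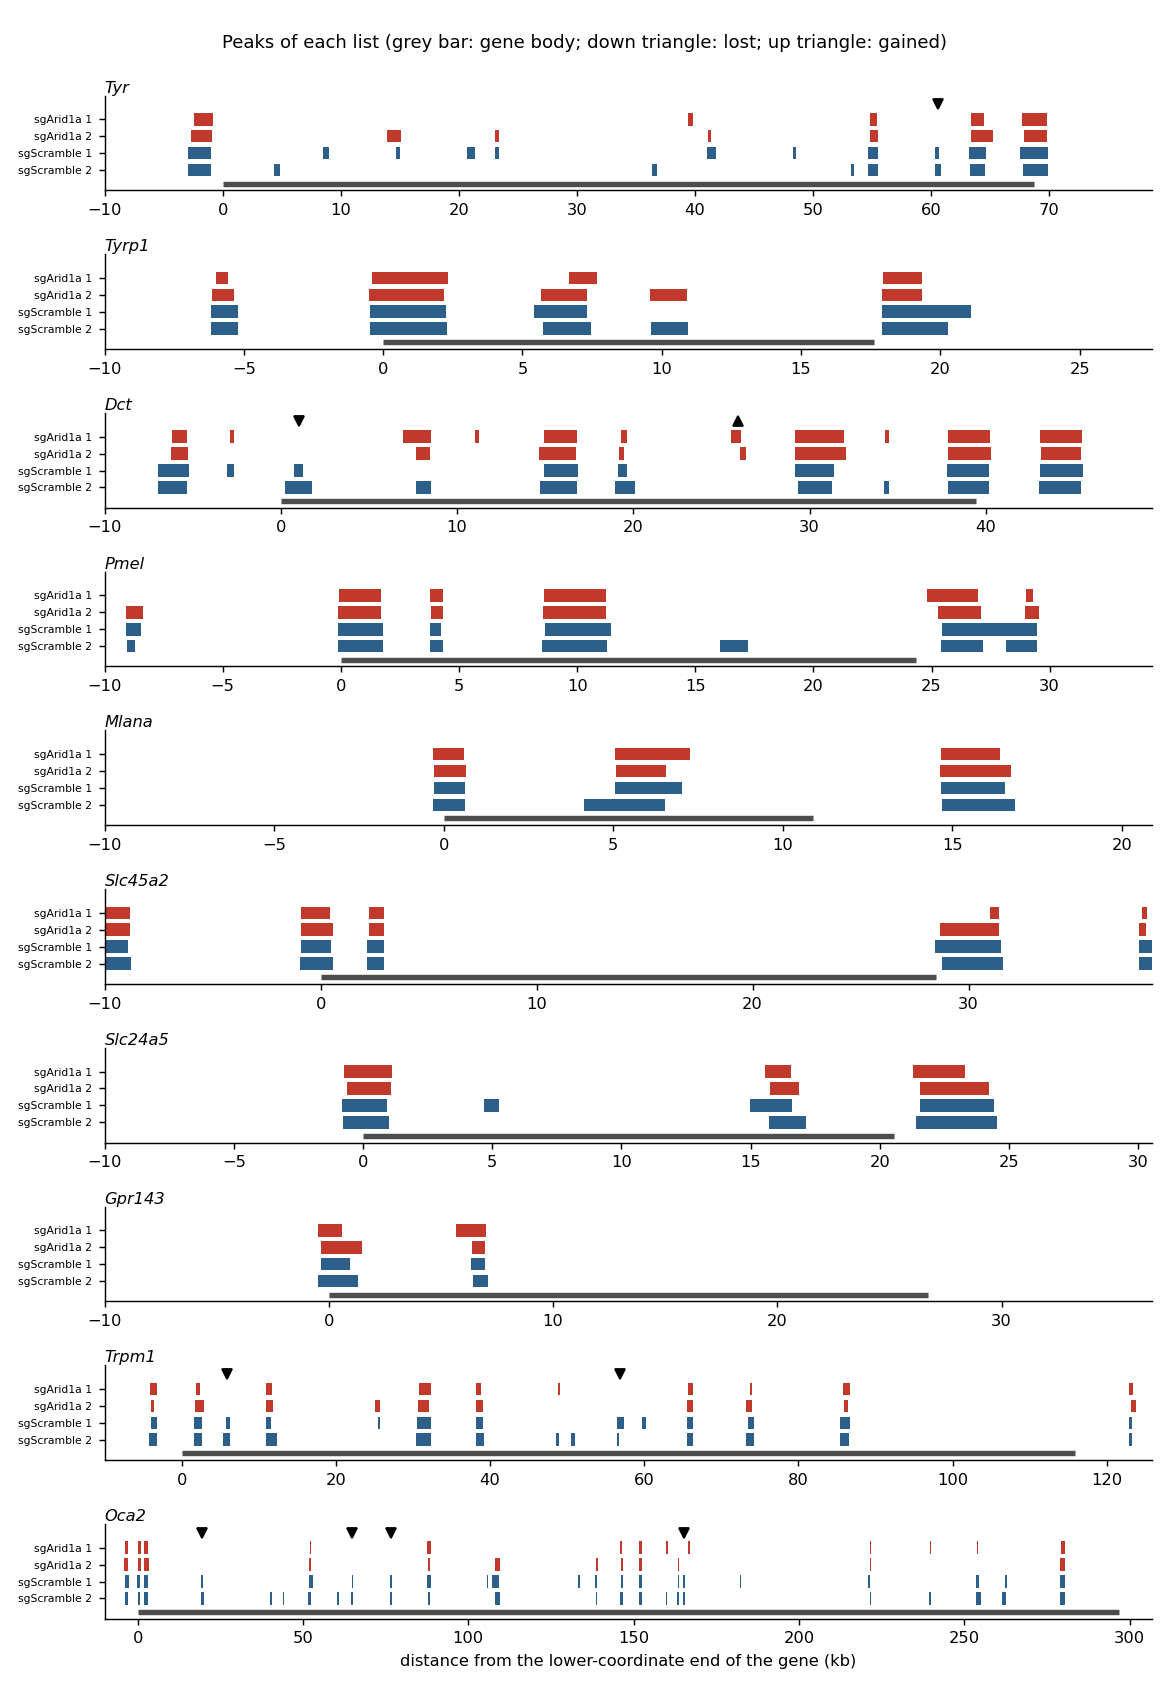
Peaks of the 4 lists (rows, sgArid1a above sgScramble) in each gene window, by distance from the lower-coordinate end of the gene in kb; the grey bar is the gene body. Triangles mark the 8 lost and the 1 gained region. Of the 16 regions within 1 kb of a gene's own start or end, 15 recur in all 4 rows and 1, at Dct, was lost.

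**Figure D2:**
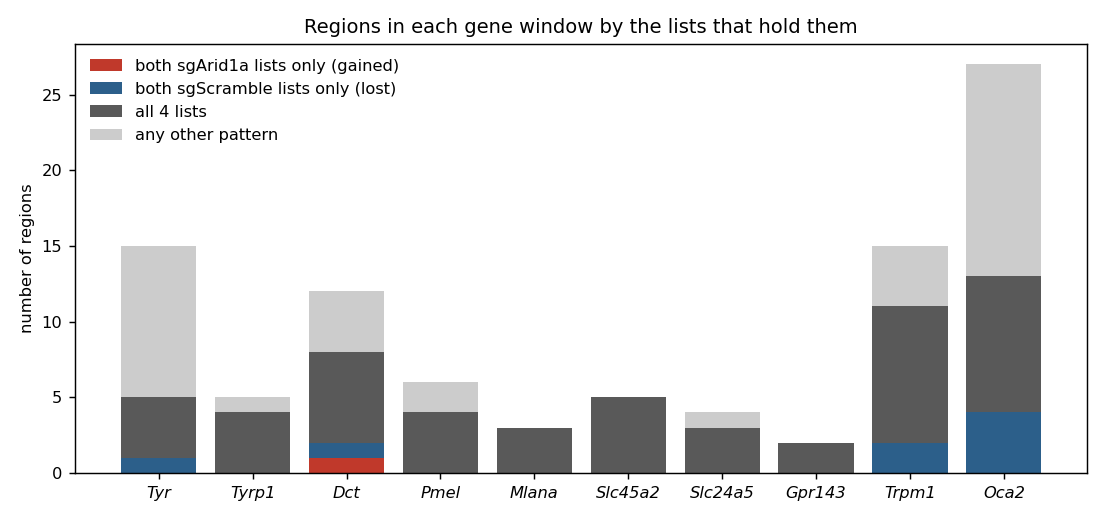
Number of regions in each gene window (bars), divided by the lists that hold them. Oca2 has 27 regions and 4 of the 8 lost ones, while Mlana, Slc45a2 and Gpr143 have only regions of all 4 lists.

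The summed length under peaks was lower in sgArid1a cells, by about as much as the lists as a whole were. Peaks covered 64549 and 73474 bp of the 10 windows in sgArid1a replicates 1 and 2, and 88668 and 92279 bp in sgScramble replicates 1 and 2. The groups did not overlap, with means of 69012 ± 6311 bp in sgArid1a and 90474 ± 2553 bp in sgScramble libraries (SD, n = 2 each), or -23.7%. The exact two-sided permutation p was 0.333, the smallest that 2 libraries against 2 can give. Over the whole lists the difference was -22.3%. As a share of everything each list covers, the windows took 0.120% and 0.117% in sgArid1a and 0.120% and 0.122% in sgScramble libraries (exact permutation p = 0.667). With lists of equal length the difference was -2145 bp (exact permutation p = 0.667), and from only the upper 50% by fold it was -485 bp. The windows held 62 and 61 peaks in sgArid1a and 76 and 78 in sgScramble libraries (exact permutation p = 0.333). With lists of equal length the direction turned, to means of 58.5 peaks in sgArid1a and 49 in sgScramble libraries.

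By gene, 6 of the 10 windows were covered less in both sgArid1a lists than in both sgScramble lists, and 53.9% of all gene windows with a peak were. The 6 were Tyrp1, Pmel, Slc45a2, Slc24a5, Trpm1 and Oca2. None of the 10 was covered more in both sgArid1a lists, against 3.17% of all windows. The median window of the 10 was covered over 79.1% of its sgScramble length, against 83.7% for all windows (quartiles 71.5% and 94.7%). As shares of the list, 2 of the 10 were lower (Trpm1 and Oca2, against 14.7% of windows) and 3 higher (Dct, Mlana and Gpr143, against 36.5%). With lists of equal length 3 were lower in bp (Tyr, Pmel and Trpm1, against 38.8%).

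**Figure D3:**
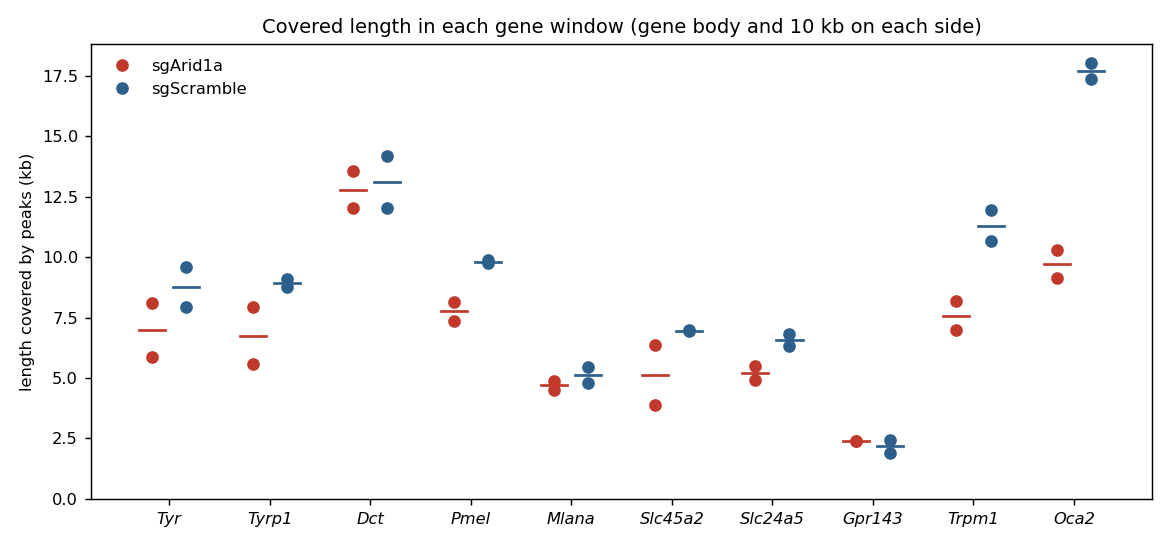
Length covered by peaks in each gene window, in kb (points: libraries; lines: group means; n = 2 per group). Oca2 and Trpm1 show the widest gaps between groups, and the points of Tyr, Dct, Mlana and Gpr143 overlap.

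Among the enzymes, Tyr (chromosome 7, 87424771 to 87493512), which catalyses the rate-limiting first steps, was covered over 5857 and 8117 bp in sgArid1a libraries and 9599 and 7950 bp in sgScramble libraries. The groups overlapped. The region over its start (87492270 to 87494706) had a peak in all 4 lists. It was shorter in both sgArid1a lists, at 2062 and 1989 bp against 2369 and 2193 bp, and stood at fold percentiles of 34.4 and 31.9 in sgArid1a and 13.8 and 23.5 in sgScramble lists. Of the 15 regions in the Tyr window only 4 were in every list and 10 were neither in every list nor lost or gained, such as a region at 87438653 to 87439854 seen in 1 list of each group. The 1 lost region, at 87485116 to 87485573, lay 7939 bp inside the gene from its start. It was among the weak peaks of the sgScramble lists, at percentiles 9.79 and 1.70.

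Tyrp1 (chromosome 4, 80834123 to 80851736), which stabilises tyrosinase and oxidises later intermediates, was covered over 5577 and 7925 bp in sgArid1a and 8774 and 9112 bp in sgScramble libraries. The groups did not overlap, though the difference of -2192 bp was -1018 bp without sgArid1a replicate 1, and 4 of its 5 regions were in all lists. Its start region (80833623 to 80836450) was of nearly the same length in every library, with 2735 and 2698 bp against 2730 and 2756 bp. The difference lay elsewhere in the window and was -489.5 bp, with overlapping groups, in the gene body alone. A region 5308 bp before the start (80827944 to 80828905) was covered over 432 and 775 bp in sgArid1a and 962 and 958 bp in sgScramble lists, and stood at percentiles 27.4 and 44.8 against 70.3 and 73.4. It was the strongest region of the window in both sgScramble lists. The region just beyond the other end (80852012 to 80855209) was shorter in sgArid1a lists, at 1399 and 1441 bp against 3169 and 2352 bp, yet ranked higher by fold, at percentiles 37.6 and 33.0 against 7.51 and 9.66.

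Dct (chromosome 14, 118012790 to 118052246), the dopachrome tautomerase, was covered over 13547 and 12049 bp in sgArid1a and 12025 and 14168 bp in sgScramble libraries, and the groups overlapped. Its direction turned on the threshold: both sgArid1a lists lay above both sgScramble lists with lists of equal length, with a mean difference of 4550.5 bp, and below them with peaks of −log10 q 5 or more, with -3119.5 bp. It had both a lost region (118013028 to 118014565, 238 bp from the gene end away from the start) and the 1 gained region (118038309 to 118039162, 13084 bp inside the gene). The gained call is thin: the peaks of the 2 sgArid1a lists shared 61 bp of the region. Within the gene, a region at 118041982 to 118044831 was covered more in both sgArid1a lists, over 2745 and 2848 bp, than in the sgScramble lists, over 2192 and 1918 bp. The start region (118050603 to 118053072) was nearly constant, at 2372 and 2430 bp against 2359 and 2350 bp.

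Of the genes for melanosome structure, Pmel (chromosome 10, 128695888 to 128720238), which forms the fibrils, was covered over 7375 and 8139 bp in sgArid1a and 9758 and 9869 bp in sgScramble libraries. The groups did not overlap, and of its 5 regions in both sgScramble lists 0 were lost. The difference of -2056.5 bp was -638 bp at a −log10 q of at least 5 and -778 bp in the gene body alone. The groups overlapped with a 2 kb flank, at -387 bp, and with the upper 50% by fold, at 0 bp. The widest gap lay in 1 region (128720699 to 128725429) close to the ends of both Pmel and Dgka, a lipid kinase gene, with 2423 and 2378 bp in sgArid1a and 4026 and 3106 bp in sgScramble lists. The annotated span of Pmel also encloses Cdk2, a cell cycle kinase gene, and reaches the end of Rab5b. The region over the Pmel and Rab5b ends (128695755 to 128697668) ranked higher by fold in sgArid1a lists, at percentiles 42.1 and 36.8 against 11.7 and 12.4. Which gene these regions belong to was not tested. Mlana (chromosome 19, 29697541 to 29708447), which encodes a melanosome protein that assists Pmel processing, had 3 regions, each in all 4 lists. Its window was covered over 4876 and 4525 bp in sgArid1a and 4787 and 5445 bp in sgScramble libraries, which overlapped. The region at its lower-coordinate end (29697225 to 29698188) was nearly constant in length, at 931 and 941 bp against 929 and 924 bp.

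Among the transporters, Slc45a2 (chromosome 15, 11000721 to 11029233), a melanosomal sugar and proton transporter, kept all 5 of its regions in every list. Its window was covered over 3882 and 6360 bp in sgArid1a and 6949 and 6982 bp in sgScramble libraries. The low value of sgArid1a replicate 1 came from the region over the higher-coordinate end (11029158 to 11032308), with 448 bp there against 2723 bp in sgArid1a replicate 2, and 3060 and 2834 bp in sgScramble lists. Without that library the difference of -1844.5 bp was -605.5 bp. In the gene body alone it was -182.5 bp, and at a −log10 q of at least 5 the groups overlapped. A region in the flank (11038608 to 11040734) was shorter in both sgArid1a lists, at 694 and 687 bp against 2036 and 2097 bp. These lengths are for the whole region, which runs past the end of the window at 11039233, so only part of that gap counts in the window difference. Slc24a5 (chromosome 2, 125068127 to 125088677), an intracellular potassium-dependent sodium/calcium exchanger, was covered over 4927 and 5491 bp in sgArid1a and 6823 and 6339 bp in sgScramble libraries, and the 3 regions of both sgScramble lists were in all lists. That order did not hold at a −log10 q of at least 5, where the groups overlapped, and turned when only the upper 50% by fold was used. Its start region (125067332 to 125069258) stood at percentiles 51.5 and 54.6 in sgArid1a and 44.5 and 48.8 in sgScramble lists.

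Oca2 (chromosome 7, 56239593 to 56536518), a melanosomal anion channel and the longest of the 10 genes, differed most in covered length. Peaks covered 9142 and 10281 bp of its window in sgArid1a and 17384 and 18014 bp in sgScramble libraries, so the sgArid1a mean was 54.9% of the sgScramble mean. Both sgArid1a libraries lay far below both sgScramble libraries relative to the spread within groups, with SDs of 805 and 445 bp (n = 2 each; exact permutation p = 0.333, the smallest possible). Among the 1075 gene windows with at least 10 regions in both sgScramble lists, 4.37% had a ratio this low or lower, and their median was 74.3%. Trpm1, the other of the 10 genes with as many regions, had a ratio of 67.0%, and 23.3% of these windows had that or less. Oca2 had the lowest ratio of the 10 genes, so its rank is no separate evidence. The difference of -7987.5 bp was smaller without the weaker peaks of the lists: it was -1737 bp at a −log10 q of at least 5 and, with overlapping groups, -91 bp with lists of equal length and -35.5 bp with the upper 50% by fold. Of the 18 Oca2 regions in both sgScramble lists, 9 were in all lists, 5 were in 1 sgArid1a list and 4 were lost. The lost regions, at 56258804 to 56259538, 56304094 to 56304822, 56315775 to 56316589 and 56404403 to 56405094, lay 19045, 64335, 76016 and 164644 bp inside the gene from its start. The strongest of them, the one at 76016 bp, stood at percentiles 46.5 and 23.5 in the sgScramble lists and the others at or below 21.2. None of the lost regions was among the strongest of the gene. The region of highest mean rank (56327219 to 56328166) stood at percentiles 80.9 and 94.2 in sgArid1a and 78.8 and 94.5 in sgScramble lists, which overlapped. Another region of all lists (56391101 to 56392082) ranked lower in sgArid1a lists, at 65.1 and 88.1 against 92.7 and 96.0. The start region (56239511 to 56240519) was present in all lists at a fold percentile of 1.22 or less. Without Oca2, 4 of 45 regions were lost (8.89%), a comparison chosen after the data were seen.

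The 2 remaining genes encode membrane proteins of melanocytes. Gpr143 (X chromosome, 152781921 to 152808651), the ocular albinism receptor, had 2 regions, both in all lists, and was covered over 2392 and 2408 bp in sgArid1a and 1907 and 2454 bp in sgScramble libraries, which overlapped. Trpm1 (chromosome 7, 64153835 to 64269772), a cation channel gene whose introns host the microRNA gene Mir211, was covered over 6974 and 8179 bp in sgArid1a and 10662 and 11946 bp in sgScramble libraries, and the groups did not overlap. The difference of -3727.5 bp was -2120.5 bp with lists of equal length, still without overlap, and -856 bp, with overlap, with the upper 50% by fold. Of 11 Trpm1 regions in both sgScramble lists 9 were in all lists and 2 were lost, at 64159235 to 64160142 and 64210285 to 64211178, both at or below percentile 9.30. The annotated outer start had no region over it. The inner start did (64184273 to 64186191), with 1509 and 1385 bp in sgArid1a and 1820 and 1876 bp in sgScramble lists. The Trpm1 region of highest mean rank (64164786 to 64166194) ranked higher in sgArid1a lists, at percentiles 93.3 and 84.1 against 75.5 and 75.04. The region at 64239273 to 64240562 ranked lower, at 40.1 and 42.9 against 49.9 and 78.6, and was the strongest of the gene in sgScramble replicate 2. No region overlapped Mir211. The nearest, 976 bp away, was in 1 list only, that of sgScramble replicate 2, and the nearest region of all 4 lists was 12799 bp away.

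The start regions of 5 of these genes ranked higher by fold in sgArid1a lists, within lists of unequal length. Of the 6 regions over an annotated start, 5 stood at a higher fold percentile in both sgArid1a lists than in both sgScramble lists (Tyr, Tyrp1, Slc24a5, Trpm1 and Oca2) and 1 at a lower (Dct). Over all 9114 start regions of all lists, 45.3% stood higher and 9.38% lower. Percentiles move with the length of a list. In lists cut to equal length, chosen after the data were seen, 4 of the 5 start regions still in every list stood higher (Tyr, Tyrp1, Slc24a5 and Trpm1), against 63.9% of all start regions, and 0 lower, against 4.21%. Dct overlapped there and the Oca2 start was no longer in every list. The start regions of the pigment genes ranked low in both groups, with a median percentile of 23.2 in sgArid1a and 13.2 in sgScramble lists, against 83.0 and 77.6 for all start regions. Over the 49 regions of all lists in the windows, 16 stood higher and 10 lower, where 20.7% and 30.9% of all such regions did. Their covered length was lower in both sgArid1a lists for 22 and higher for 4, against 40.6% and 6.45% of all such regions, and the median ratio was 90.7% against 91.3%.

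The strongest peaks of the 10 windows showed no common direction. Their percentile, averaged over the 10 genes, was 55.3 and 53.6 in sgArid1a and 54.6 and 59.2 in sgScramble libraries, which overlapped (exact permutation p = 0.667). It was higher in both sgArid1a lists for 2 of the 10 genes, Slc24a5 and Trpm1, against 27.1% of windows, and lower for 1, Tyrp1, against 20.1%. The order of the genes was wide in both groups. At Tyr, Tyrp1, Pmel, Gpr143, Trpm1 and Oca2 the strongest peak lay in different regions in different lists, so those values do not follow a single region. Trpm1 reached 93.3 and 84.1 in sgArid1a and 75.5 and 78.6 in sgScramble lists, and Oca2 82.2 and 94.2 against 92.7 and 96.0. At the other extreme, Dct had 16.2 and 6.38 in sgArid1a and 7.84 and 12.0 in sgScramble lists, from a region beyond its start (118055813 to 118058297). Gpr143 had 70.2 and 68.1 in sgArid1a and 69.8 and 81.2 in sgScramble lists, with its region of highest mean rank (152781449 to 152783391) at the lower-coordinate end, and Mlana had 61.0 and 61.3 against 52.7 and 61.9. Trpm1 and Oca2 overlapped in sgArid1a lists, while Oca2 lay above Trpm1 in both sgScramble lists. Mlana lay above Slc45a2 in both sgArid1a lists and overlapped it in sgScramble lists, and Tyr overlapped Pmel in both groups. Slc45a2 had 55.9 and 53.4 in sgArid1a and 55.6 and 50.6 in sgScramble lists, from a region in its flank (10990481 to 10991929). Tyr had 43.5 and 31.9 in sgArid1a and 42.4 and 40.8 in sgScramble lists. The Tyr region of highest mean rank (87421840 to 87423915) lay 856 bp beyond the end away from its start. Pmel had 42.1 and 36.8 in sgArid1a and 34.9 and 48.8 in sgScramble lists, and its region of highest mean rank (128686805 to 128687507) was absent from the list of sgArid1a replicate 1.

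**Figure D4:**
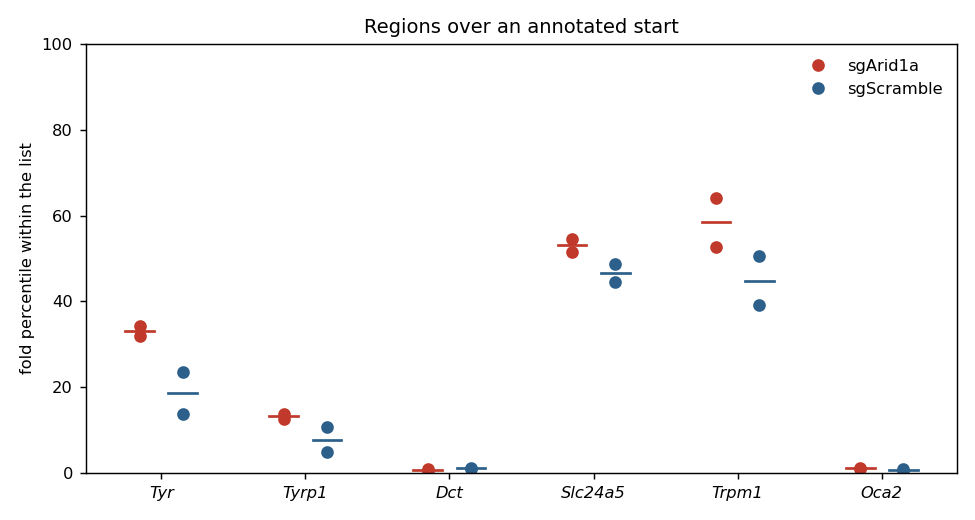
Fold percentile within each list of the regions over an annotated start (points: libraries; lines: group means; n = 2 per group). The sgArid1a points lie above the sgScramble points for Tyr, Tyrp1, Slc24a5, Trpm1 and Oca2, with Dct and Oca2 near 0.

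Peaks at the pigment genes were low in fold in both groups, and their pooled median width was above that of each list. Their median width was 879 and 963 bp in sgArid1a and 915 and 1043 bp in sgScramble lists, against 675 and 732 bp and 754 and 743 bp over the whole lists. By gene, the median width at Tyr, Trpm1 and Oca2 lay below that of the whole list in some lists and above it in others. By fold, the median over the genes of the median percentile was 18.0 and 20.6 in sgArid1a and 8.22 and 9.63 in sgScramble lists. The median gene window stood between 52.8 and 56.3. By −log10 p the same peaks were closer to other genes, at 48.2 and 47.2 in sgArid1a and 42.9 and 48.9 in sgScramble lists, against 58.0 to 60.6. Of the peaks in the windows, 35.5% and 31.1% in sgArid1a lists and 35.5% and 35.9% in sgScramble lists were among the 5% of lowest fold. The genes were not alike in this. Averaged over lists, the median fold percentile was 0.0918 at Dct, 2.09 at Pmel, 8.27 at Slc24a5, 8.45 at Mlana, 12.3 at Tyrp1, 14.3 at Tyr and 23.3 at Slc45a2. It was 34.9 at Oca2 and 51.3 at Trpm1. Among the 9343 windows with at least 3 peaks in every list, whose median was 51.0, Dct had the lowest value, Pmel the 17th lowest and Slc24a5 and Mlana the 97th and the 99th. Mlana and Pmel stood at 82.8 and 63.0 by −log10 p. Gpr143, with 2 peaks, was not ranked, and lay at 59.9 and 63.2 in sgArid1a and 68.0 and 68.4 in sgScramble lists. The lists give the fold without the background it was divided by.

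**Figure D5:**
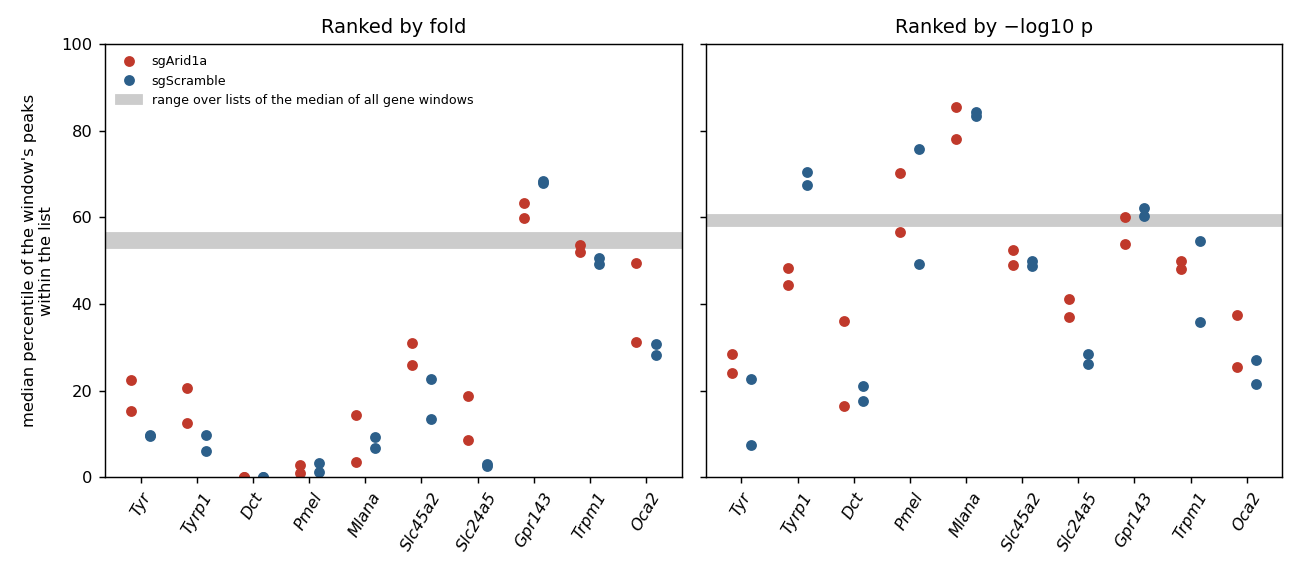
Median percentile of the peaks in each gene window within each list, ranked by fold (left) and by −log10 p (right); points are libraries (n = 2 per group) and the grey band spans the 4 lists' medians over all gene windows. Dct, Pmel, Slc24a5, Mlana, Tyr and Tyrp1 lie far below the band by fold, and Mlana lies above it by −log10 p.

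A wider list of 37 pigment cell genes, covering melanocortin signalling, transporters, endosomal sorting, the BLOC complexes and melanosome transport, gave shares close to those of the 10 genes. Of the 230 regions in both sgScramble lists, 31 were lost (13.5%, against 12.9% of all regions and 11.8% over all gene windows), and 2 of 187 in both sgArid1a lists were gained (1.07%, against 1.33%). Covered length was lower in both sgArid1a lists for 23 of the 37 genes (62.2%, against 53.9% of all windows) and higher for 0 (against 3.17%), with a median of 81.1% of the sgScramble length, against 83.7%. Dtnbp1, a BLOC-1 subunit, lost 4 of 10 regions and was covered over 5889 and 6678 bp in sgArid1a and 9892 and 10241 bp in sgScramble libraries. Ap3b1, a subunit of the AP-3 sorting adaptor, lost 3 of 12, Lyst, the lysosomal trafficking regulator, 3 of 9, Sytl2, a Rab27 effector, 3 of 8, and Bace2, a protease that processes Pmel, 3 of 9. The gained regions were at Lyst and at Rab27a, the GTPase that tethers melanosomes to actin transport, with 1 each. By group, 10 of 62 regions were lost at the sorting genes, 10 of 63 at the transport genes, 6 of 49 at the BLOC genes, 3 of 42 at the transporters and 2 of 21 at the melanocortin genes. Here a region in the windows of neighbouring genes is counted at each gene, so these totals add to more than 230.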

How the data were processed

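Peak lists of 4 ATAC-seq libraries (Omni-ATAC, per the labels' protocols) were used. The submitters' processing notes name the tools STAR 2.5.3a and HOMER and the builds mm10 and GRCm38, with no roles; which peak caller was run, and whether reads were shifted for Tn5, is not given in the sources used here. Each deposited list was called per library and carries the authors' score, a signal value taken as the fold (a ratio of signal over background), −log10 p-value and −log10 q-value. The deposited score, close to 10 times the −log10 q, was not used further.

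Overlapping peaks (at least 1 bp) of the assembled chromosomes were merged. Gene bounds came from RefSeq (GRCm38.p6), and starts from its promoter table, which covers 6 of the 10 genes; for the others both gene ends were used. Exon bounds were not used here. Percentiles were ranks of the fold or −log10 p within a list. Group values were compared by exact two-sided permutation tests over libraries, and other values are descriptions. Regions were named if lost, gained, over a start or strongest in a window; some further regions were named after their values were seen. Of 38 other pigment genes 37 matched by symbol, and those with the most lost or gained regions, up to 5 of each, were named. The genes and lists were chosen with earlier results of these data known. Replicate numbers were not taken as pairs in the main tests. The correlation of within-group deviations was 0.0659 over gene windows, which with 2 libraries per group cannot settle whether libraries were paired. The merging and window steps were tested on simulated data. Alternatives tried were the upper 50% by fold, a stricter q, equal-length lists, a width minimum, other flanks, wider merging, a 50% overlap, shares of the list, ranks by −log10 p, leaving out each library, and the replicate block. Python 3.11.15, numpy 2.4.6, pandas 2.3.3, SciPy 1.17.1 and matplotlib 3.10.9 were used.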

Additional observations from a re-analysis of the deposited data

How the results depend on the processing

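The mean covered length of the 10 windows was lower in sgArid1a libraries in every alternative run, but by only -485 bp (exact permutation p = 1) with the upper 50% by fold, and the libraries overlapped as shares of the list. No exact test could pass 0.05. In the main run 8 of 63 regions were lost (12.7%). The count fell but the share rose with the upper 50% by fold, to 3 of 13 (23.1%). The same held at a −log10 q of at least 5, with 6 of 32 (18.8%). No share over all gene windows is given for either setting, so loss among stronger peaks was not compared with the background. Cutting the lists to equal length left 1 lost region of 41 (2.44%), against 6.14% over all gene windows. The count was 4 of 45 without Oca2 (chosen after the data were seen), and 10 to 16 when a library was left out. The count of 1 gained region was 0 at a −log10 q of at least 5, and 1 to 4 when a library was left out. It was 3 of 14 with the upper 50% by fold, 3 of 48 with lists of equal length and 3 of 87 with a 50 kb flank. Of these settings, a share over all gene windows is given only for lists of equal length (4.36%, against 6.25% here). Leaving out a library loosens the rule for both calls, so those counts could only stay or rise. Of the 10 genes, 1 was lower in covered length with the upper 50% by fold, 3 with lists of equal length and 2 as a share of the list (chosen after the data were seen), in place of 6. The number of peaks turned with lists of equal length, to 9.5 more in sgArid1a. The difference in the mean percentile of the strongest peak, -2.46, turned to 1.80 with the upper 50% by fold, 6.04 with lists of equal length, 4.99 with no flank, 6.26 with a 2 kb flank and 0.201 with a 50 kb flank. Covered length at Slc24a5 turned to 51.5 bp more in sgArid1a at the stricter q and 1796.5 bp more with the upper 50% by fold, where Slc45a2 turned to 7.5 bp more. The cause was not tested. With the replicate block the covered length difference was -21462 bp with an exact permutation p of 0.5, the smallest that 2 pairs can give, and the block changed no call. Without counts, what depth limits could not be computed.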

Other observations

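Dct stood in a stretch of peaks that were among those of lowest fold in each list. Taking neighbouring peaks below the 20th fold percentile, a limit chosen after the values were seen, the stretch around its start held 13 and 10 peaks in sgArid1a lists and 11 in each sgScramble list. It ran from 117997996 to 118058245 on chromosome 14 in sgArid1a replicate 1 and over 60.1 to 63.0 kb in the 4 lists. Of these peaks, 12 and 9 in sgArid1a lists and 9 and 10 in sgScramble lists were among the 1% of lowest fold, while the highest by −log10 p stood at percentiles 77.9 and 76.4 in sgArid1a and 74.2 and 77.3 in sgScramble lists. The neighbouring peaks on either side stood at fold percentiles of 52.4 to 91.8. The stretch covered nearly the same span in both groups.

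A stronger region than any in the Tyr window lay outside it. This region, 14240 bp upstream of the start (chromosome 7, 87507752 to 87509030), was in all 4 lists, at fold percentiles of 94.5 and 91.8 in sgArid1a and 88.7 and 82.4 in sgScramble lists, and was covered over 821 and 902 bp against 1092 and 1071 bp. It was singled out after its values were seen, since mouse Tyr is known to have a distal enhancer upstream; whether this region is that element was not tested.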
